A study of Homo sapiens with 8 samples.

Results

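Pt-ttpy and cisplatin were set against each other by the γH2AX peaks called after each drug on chromosomes 1 to 22 of A2780, a human ovarian carcinoma line. The comparison took all 17416 autosomal peaks of the Pt-ttpy list and all 25132 of the cisplatin list, 42548 of the 54434 peaks in the 3 deposited lists of the series. No measured value chose the peaks: every autosomal peak entered, and each was classed by whether it had at least 1 bp in common with a peak of the other list. The cisplatin group consisted of A2780 cells kept for 96 hours at the IC80 of cisplatin, and the Pt-ttpy group of the same line kept for the same time at the IC80 of Pt-ttpy. Each group had 2 samples, which the labels tie to 1 list, so each drug had 1 list and no replicate values. Untreated A2780 cells (2 samples, 1 list, 9487 autosomal peaks) are given beside some results. All 6 of these samples were immunoprecipitated with an antibody against γH2AX, and all came from 1 cell line. The names of both treated lists also carry the tag of the untreated list, but the sources used here do not give the control used in calling.

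Histone H2AX is phosphorylated around DNA double-strand breaks and stalled replication forks, and the phosphorylated form, γH2AX, recruits repair factors. Cisplatin binds neighbouring purines, mainly guanines, and crosslinks them. Crosslinks block replication and transcription. Pt-ttpy is a platinum complex that binds G-quadruplexes, the folded structures that guanine-rich DNA such as telomere repeats can adopt. The doses were matched by their effect on growth and the times were equal. With 1 list per drug no test of a difference between the drugs was possible, and differences are given with counting error only: intervals are exact Clopper-Pearson 95% intervals, or 95% order-statistic intervals for medians, and they treat peaks as independent, which neighbouring peaks are not. A list counts a position in a mixed culture, so a larger fraction of damaged cells and more damage per cell cannot be told apart.

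The peaks called after both drugs were the stronger and wider peaks of each list. Of the Pt-ttpy peaks, 12159 (69.8%, 69.1 to 70.5%) lay on a cisplatin peak and 5257 did not. Of the cisplatin peaks, 11991 (47.7%, 47.1 to 48.3%) lay on a Pt-ttpy peak and 13141 did not; with peaks of a list within 1 kb merged, the cisplatin share was 30.2%. In sequence, 4839 kb were covered by both lists, 76.5% of the 6328 kb under Pt-ttpy peaks and 62.1% of the 7792 kb under cisplatin peaks. The median width of the common peaks was 241 bp (quartiles 147 to 444) in the Pt-ttpy and 259 bp (155 to 477) in the cisplatin list. Peaks called after 1 drug only had a median width of 137 bp (111 to 177) for Pt-ttpy and 140 bp (112 to 183) for cisplatin. The widths of these unshared peaks were thus close to each other, and below those of the common peaks in both lists. A wider peak meets the rule of 1 bp more easily, so part of this difference is set in advance.

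Strength separated the classes more sharply than width. Column 9 of each list holds the authors' -log10 q, the peak caller's significance after correction for multiple tests. Its median was 8.36 in common and 3.24 in unshared Pt-ttpy peaks, and 8.43 in common and 3.20 in unshared cisplatin peaks. Among Pt-ttpy peaks with a -log10 q from 1 to 2, 22.3% (20.1 to 24.7%) lay on a cisplatin peak. The share was 50.7% (49.0 to 52.5%) from 3 to 4, 77.6% (76.1 to 79.0%) from 5 to 7 and 96.8% (95.9 to 97.5%) from 10 to 15. Cisplatin peaks followed the same order from a lower start, with 8.34% (7.10 to 9.72%) from 1 to 2, 23.035% (21.8 to 24.3%) from 3 to 4, 55.6% (53.9 to 57.3%) from 5 to 7 and 94.3% (93.2 to 95.4%) from 10 to 15. At 25 or more every peak of either list, 1714 Pt-ttpy and 1766 cisplatin peaks, overlapped the other list. A -log10 q of 10 or more was reached by 4937 Pt-ttpy peaks, of which 62 were unshared, and by 5182 cisplatin peaks, of which 115 were unshared.

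**Figure D1:**
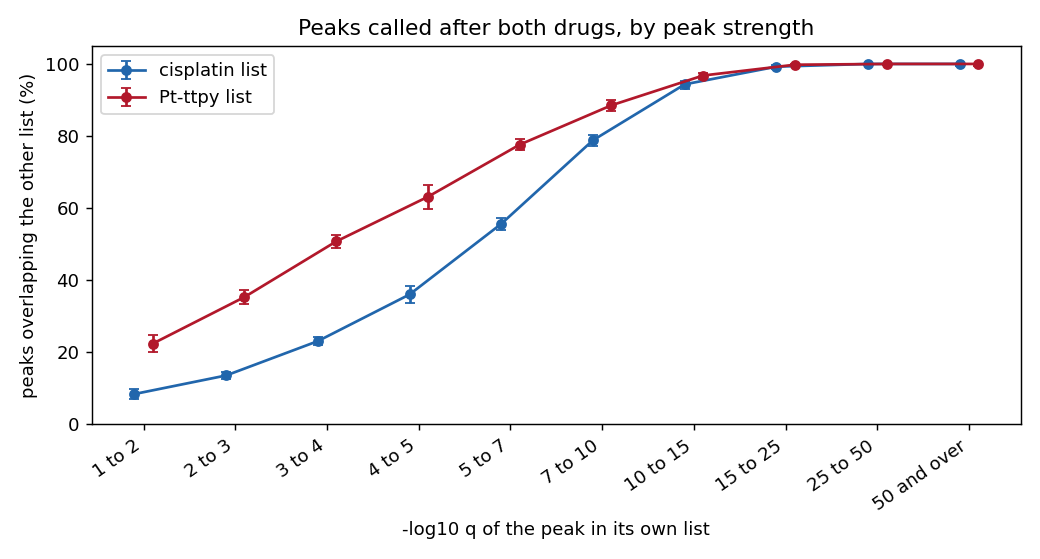
Share of peaks overlapping the other list (y axis, percent) by bands of the peak's own -log10 q (x axis), for the Pt-ttpy and the cisplatin list; bars are exact 95% binomial intervals, and points are set slightly apart sideways. The shares rise from 22.3% and 8.34% in the weakest band to 100% in both lists above 25.

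The strongest unshared peaks were narrow. The 8 highest of the Pt-ttpy list were 116 to 173 bp wide, and 6 of them lay within 1 kb of a cisplatin peak. The highest were at chr7:57913777-57913949 (hg19), 605 bp from a cisplatin peak, and at chr10:38874070-38874210, 237 bp from one, both with a -log10 q of 17.9. Of the remaining pair, the peak at chr11:86760427-86760549 (-log10 q 15.4, fold 6.11 as listed by the authors) was 542 kb from the nearest cisplatin peak. The other, at chr13:81651120-81651240 (-log10 q 14.5), was 110 kb from one. Neither overlapped an untreated peak.

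Of the 8 highest unshared cisplatin peaks, 109 to 161 bp wide, 3 lay within 1 kb of a Pt-ttpy peak. The highest, chr10:39104837-39104997 with a -log10 q of 20.1, was 200 bp from one. Others stood far from any Pt-ttpy peak: chr2:148952263-148952377 (fold 6.40) was 5157 kb away and chr7:4851187-4851295 (fold 6.58) was 3539 kb away. The peak on chromosome 7 also lay on an untreated peak, as did 5 of these 8 cisplatin peaks and 3 of the 8 Pt-ttpy peaks. The folds and -log10 q values are the authors' and rank a peak within its own list only.

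Unshared peaks lay close to the other list near gaps and ends, and farther from it in the rest of the autosomes. The median distance to the nearest peak of the other list was 0.948 kb for unshared Pt-ttpy and 4.75 kb for unshared cisplatin peaks, and 50.8% and 28.3% of them lay within 1 kb. The cisplatin list holds 1.44 peaks per Pt-ttpy peak, which by itself brings its peaks nearer. Of the unshared Pt-ttpy peaks, 73.9% lay within 1 kb near gaps, 72.0% near ends, 35.4% on the long arm of chromosome 1 past the flank of its gap and 44.6% elsewhere. Within 5 Mb of a centromere gap (the unassembled centromere of a chromosome and the heterochromatin next to it) the median was 0.391 kb for unshared Pt-ttpy and 0.630 kb for unshared cisplatin peaks. On that stretch of chromosome 1 it was 1.92 kb for 2366 unshared Pt-ttpy and 6.81 kb for 6576 unshared cisplatin peaks. Away from gaps, chromosome ends and chromosome 1q it was 1.498 kb for Pt-ttpy and 72.4 kb for cisplatin, so the unshared cisplatin peaks of this sequence were the most isolated.

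The common share depended on where a peak lay, by location classes chosen with earlier results of these data known. Within 5 Mb of a centromere gap, sequence rich in satellite repeats and recent duplications, 8284 of 9952 Pt-ttpy peaks (83.2%, 82.5 to 84.0%) and 8154 of 11168 cisplatin peaks (73.0%, 72.2 to 73.8%) were common. Within 1 Mb of a chromosome end the shares were 80.5% (78.0 to 82.9%) of 1063 Pt-ttpy and 69.9% (67.2 to 72.5%) of 1192 cisplatin peaks. On distal 1q, meaning the long arm of chromosome 1 more than 5 Mb past its gap, they were 27.3% (25.8 to 28.9%) of 3254 Pt-ttpy and 11.9% (11.1 to 12.6%) of 7461 cisplatin peaks. In the rest of the autosomes they were 67.7% (66.0 to 69.3%) of 3147 Pt-ttpy and 39.9% (38.6 to 41.2%) of 5311 cisplatin peaks. Peaks were also weakest where fewest were common: the median -log10 q was 7.68 near gaps and 2.72 on distal 1q in the Pt-ttpy list, and 7.004 and 2.65 in the cisplatin list. Near ends and elsewhere it was 5.65 and 5.65 in the Pt-ttpy list, although the shares there differed, and 5.65 and 3.78 in the cisplatin list. Common counts were alike in both lists, as with 888 and 885 on distal 1q, so the lower cisplatin shares carry its longer list. Whether strength or the density of peaks accounts for the differences between locations was not tested.

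By chromosome, the share of Pt-ttpy peaks on cisplatin peaks was lowest on chromosome 1, at 49.2% (47.8 to 50.5%) of 5336 peaks, and next lowest on chromosome 13, at 58.4% (48.8 to 67.6%) of 113 peaks. It was highest on chromosome 4, at 83.5% (81.2 to 85.7%) of 1074 peaks, with chromosomes 21 (83.2%), 7 (83.1%), 20 (83.0%) and 3 (82.9%) inside that interval. The share of cisplatin peaks on Pt-ttpy peaks was 26.1% on chromosome 1, 29.7% on chromosome 13 and 36.9% on chromosome 14, and reached 74.3% (71.6 to 76.9%) on chromosome 21. Chromosomes 13, 1 and 14 were also those with the most cisplatin peaks per Pt-ttpy peak, 1.94, 1.85 and 1.74, against 1.09 on chromosome 20 and 1.11 on chromosome 21.

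Common peaks were next compared in width. In 9194 pairs each peak overlapped only the other. The Pt-ttpy peak was the wider in 3957 pairs and the cisplatin peak in 5112, with 125 of equal width. The median ratio of Pt-ttpy to cisplatin width was 0.981 (0.977 to 0.984), with quartiles of 0.812 and 1.12, so the offset was small beside the spread among pairs. Among 473 pairs with a peak of 1 kb or more the ratio was 0.999 (0.997 to 1.00) with quartiles of 0.970 and 1.02. Among the 2144 pairs with the lowest mean rank it was 0.925 (0.900 to 0.948) with quartiles of 0.664 and 1.28. On distal 1q the ratio was 0.933 (0.903 to 0.965), and near centromere gaps 0.983 (0.980 to 0.988).

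The pairs of most unequal width, among the 1615 with a peak of 500 bp or more, favoured either drug. The cisplatin peak was over 2 times as wide in 118 of these pairs and the Pt-ttpy peak in 47. At the extreme, a cisplatin peak of 781 bp at chr1:161415584-161416364 met a Pt-ttpy peak of 104 bp at chr1:161415833-161415936. At chr6:57455010-57456088, 1.37 Mb from the centromere gap, a cisplatin peak of 1079 bp met a Pt-ttpy peak of 146 bp. In the other direction a Pt-ttpy peak of 679 bp at chr15:102480939-102481617, near the end of the long arm, met a cisplatin peak of 133 bp. At chr7:61555629-61556136 a Pt-ttpy peak of 508 bp met a cisplatin peak of 101 bp.

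Some wide peaks of 1 list were several peaks in the other. Of the Pt-ttpy peaks 988 overlapped more than 1 cisplatin peak, 127 of them more than 2, and of the cisplatin peaks 1118 overlapped more than 1 Pt-ttpy peak, 151 of them more than 2. The cisplatin peak at chr19:27855263-27860524, just beyond the centromere gap, covered 5.26 kb and met 8 Pt-ttpy peaks of 132 to 1178 bp. That at chr15:22327526-22332949 met 7 Pt-ttpy peaks, the widest of 3812 bp. Conversely, the Pt-ttpy peak at chr17:36298566-36306093, of 7.53 kb, met 5 cisplatin peaks of 233 to 3349 bp, and that at chr15:20862169-20873711, of 11.5 kb, met 4. Of the 10 peaks named by the number of partners, the one on chromosome 17 was the only one not within 5 Mb of a gap.

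The summits of paired peaks, the positions of highest pileup, lay a median of 23 bp apart, with quartiles of 8 and 74 bp. They were within 50 bp of each other in 6226 pairs (67.7%) and over 200 bp apart in 764 (8.31%). For the 2171 pairs of highest mean rank the median distance was 9 bp, and for the 2144 of lowest mean rank it was 64 bp. On distal 1q the median was 57 bp, against 21 bp near gaps. Fragments of 200 to 700 bp were sequenced, per the labels, so the median distances were below the length of 1 fragment.

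For strength, each pair was given the percentile rank of its -log10 q among the pairs in each list, so that both ranks ran over the same 9194 peaks and 100 is the strongest. The orders were alike: Spearman's rho was 0.853 across pairs, which share the caller, the assembly and the copy number of the line, and is given as a description. The difference of ranks, Pt-ttpy minus cisplatin, had quartiles of -8.26 and 8.27 points. It exceeded 20 points in 1800 pairs: Pt-ttpy ranked higher in 922 of them, 10.0% of all pairs, and cisplatin in 878, or 9.55%. The ranks are coarse at the weak end. The pairs took 144 distinct -log10 q values in the Pt-ttpy and 179 in the cisplatin list, and the largest group of ties held 9.19% of the pairs in the Pt-ttpy and 5.37% in the cisplatin list. Differences over 20 points made up 16.7% of the 2144 pairs with a mean rank under 25 and 40.2% of the 2586 from 25 to 50. From 50 to 75 they made up 17.2% of 2293 pairs, and at 75 or more 6 of 2171. Close to either end of the ranking a pair cannot differ by over 20 points, so these shares are partly set in advance.

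**Figure D2:**
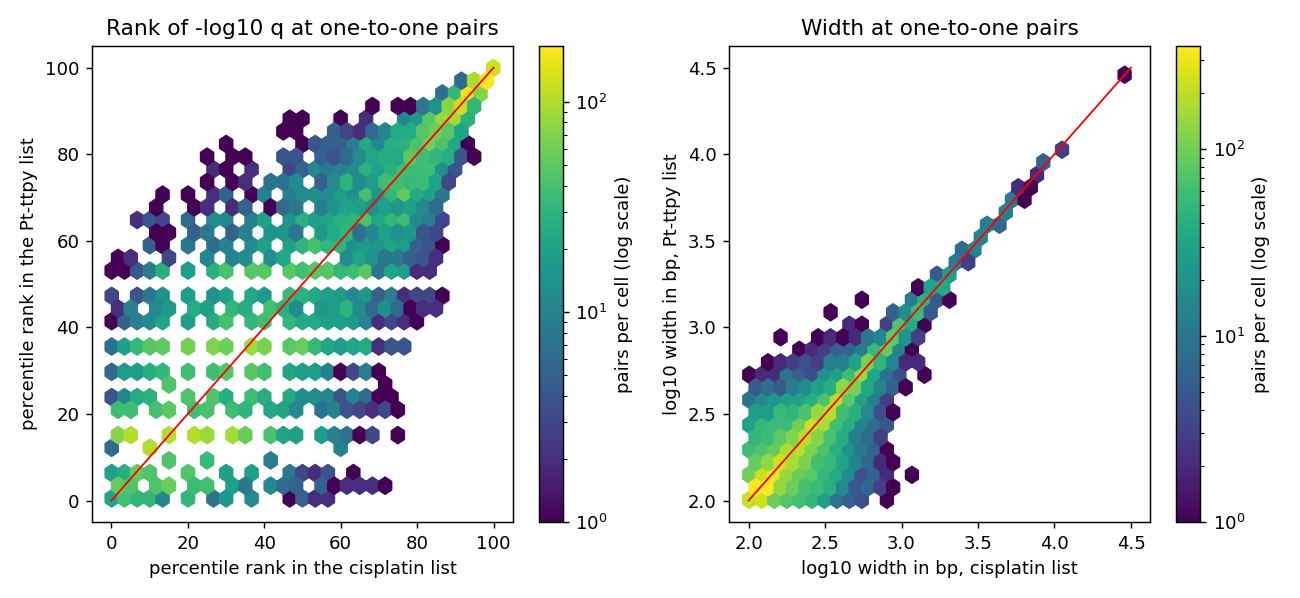
One-to-one pairs of a Pt-ttpy and a cisplatin peak: percentile rank of -log10 q in each list (left) and log10 of the width in bp in each list (right), with cells coloured by the number of pairs on a log scale and the line of equal values in red. Of the 9194 pairs 1800 lie more than 20 points from the line on the left. Of these, 6 are among the 2171 pairs of highest mean rank, where the size of a difference is bounded. On the right pairs of 1 kb or more lie close to the line.

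Ranks among the pairs are centred by construction, and the pairs near gaps, 66.2% of all, largely set that centre, so their median near 0 is no finding. The median shift was -0.0489 points (-0.185 to 0.0218) in 6089 pairs near gaps and -0.549 (-0.832 to 0.973) in 767 pairs on distal 1q, where it turned to 0.476 among peaks with a -log10 q of 5 or more. It was 0.0680 (-0.549 to 0.973) in 640 pairs near chromosome ends and -0.397 (-0.702 to -0.0816) in 1698 pairs elsewhere. The share of pairs over 20 points higher for Pt-ttpy was 9.59% near gaps, 11.7% near ends, 9.26% on distal 1q and 11.3% elsewhere, beside 10.0% of all pairs. For cisplatin the shares were 9.34%, 10.8%, 9.65% and 9.78%, beside 9.55%. Order within distal 1q was less alike than elsewhere, with a rho of 0.648 against 0.859 near gaps, and its pairs were weaker, with a median rank of 14.1 in the Pt-ttpy and 20.2 in the cisplatin list.

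Single pairs moved further. The 8 largest shifts towards Pt-ttpy were 55.1 to 59.4 points, and 6 of the 8 pairs lay within 5 Mb of a gap. At chr10:39094167-39094421 the Pt-ttpy peak had a fold of 5.20 and rank 65.3, and its cisplatin partner a fold of 3.12 and rank 5.85, with summits 24 bp apart. The pair at chr9:69035750-69035969 had the same folds and ranks. At chr3:75993205-75993346, away from the centromere, the ranks were 65.3 and 10.1.

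The 8 largest shifts towards cisplatin were 55.7 to 66.2 points, again with 6 pairs near gaps. At chr7:58000351-58000712, 0.0539 Mb from the gap, the cisplatin peak ranked 68.0 and its Pt-ttpy partner 1.86. At chr9:68356674-68356896 they ranked 70.1 and 4.32, with summits 6 bp apart and widths of 223 and 222 bp. On distal 1q the cisplatin peak at chr1:206569927-206570300 ranked 68.0 and the Pt-ttpy peak 4.32. The highest -log10 q in these pairs was 12.9 among the 8 shifted towards Pt-ttpy and 15.6 among the 8 shifted towards cisplatin.

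Windows of 1 Mb show where shifts of neighbouring pairs pointed the same way. Of 144 windows with 10 or more pairs, the median shift was above 0 in 58 and below 0 in 86, and exceeded 5 points either way in 13. Ties fix small shifts at set values, and the median over all pairs was -0.111, so the split about 0 is no finding. The window at 161 to 162 Mb on chromosome 1 had the largest shift towards cisplatin, a median of -11.4 points (quartiles -19.4 and -6.20), with 17 of its 18 pairs ranked lower in the Pt-ttpy list. It held 52 Pt-ttpy, 90 cisplatin and 16 untreated peaks, and includes the pair of most unequal width given above. The window at 16 to 17 Mb on chromosome 22, within 5 Mb of the gap, had a median of -7.28 with 21 of 28 pairs lower in the Pt-ttpy list. At 21 to 22 Mb on chromosome 5 the median was -7.92, with 18 of 28 pairs lower and quartiles of -16.1 and 11.9 that span 0.

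Shifts towards Pt-ttpy were strongest at 34 to 35 Mb on chromosome 5, with a median of 21.8 points, yet only 6 of its 10 pairs were higher and the quartiles were -8.98 and 26.0. At 34 to 35 Mb on chromosome 17 the median was 12.9 (3.32 to 26.8), with 11 of 14 pairs higher. At 64 to 65 Mb on chromosome 7 it was 8.84 (3.11 to 16.8), with 23 of 28 pairs higher, and at 197 to 198 Mb on chromosome 3, near the chromosome end, 7.12 with 13 of 16 higher. Close windows could point in opposite ways. At 65 to 66 Mb on chromosome 7 the median was -8.74, with 9 of 14 pairs lower, and at 36 to 37 Mb on chromosome 17 it was -6.10, with 24 of 35 lower. These windows were picked as the extremes of 144, so some shift of this kind is built into the choice.

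Counts per window carry the difference in list length, so 1.44 cisplatin peaks per Pt-ttpy peak is the ratio of the lists as a whole. At equal lengths, given further on, most of the window differences were gone, though that setting cuts the lists at unlike strengths. In 268 windows with at least 20 peaks over both lists, 239 had more cisplatin and 23 more Pt-ttpy peaks. More than 2 cisplatin peaks per Pt-ttpy peak were counted in 91 windows, 34.0% of the 268, and 78 of these were among the 100 such windows of distal 1q. Distal 1q had been set apart as a class with earlier results of these data known. Near centromere gaps 2 of 89 windows passed that ratio, near ends 0 of 18, and elsewhere 11 of 61. The median ratio was 2.57 on distal 1q, 1.13 near gaps, 1.10 near ends and 1.36 elsewhere. More Pt-ttpy than cisplatin peaks were counted in 8.58% of all windows, in 14 of 89 near gaps, 3 of 18 near ends, 0 of 100 on distal 1q and 6 of 61 elsewhere. No window held over 2 Pt-ttpy peaks per cisplatin peak.

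All 10 windows of highest cisplatin to Pt-ttpy ratio were on distal 1q. Together they held 467 cisplatin, 86 Pt-ttpy and 3 untreated peaks, and 12 peaks of each drug's list in them were common. The window at 208 to 209 Mb had 30 cisplatin and 4 Pt-ttpy peaks, a ratio of 7.50 (2.64 to 29.3), and none in common. That at 165 to 166 Mb had 40 and 6, a ratio of 6.67 (2.81 to 19.2). The fullest, at 170 to 171 Mb, had 89 and 17, a ratio of 5.24 (3.09 to 9.39). At equal list lengths these 3 windows held 7 against 4, 18 against 6 and 34 against 17 peaks, and the 10 together 173 against 86, a ratio of 2.01 in place of 5.43. In these 10 windows 1 Pt-ttpy and 0 cisplatin peaks were among the 5000 strongest of their list.

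Outside distal 1q, 13 windows passed the ratio of 2. They were singled out after their values were seen. Together they held 469 cisplatin and 193 Pt-ttpy peaks, of which 380 and 107 were unshared, and 7 of the 13 windows had no untreated peak. At 14 to 15 Mb on chromosome 11 there were 42 cisplatin and 10 Pt-ttpy peaks, a ratio of 4.20 (2.07 to 9.39). At 73 to 74 Mb on chromosome 2 there were 35 and 10, a ratio of 3.50 (1.70 to 7.92), and at 59 to 60 Mb on chromosome 17 there were 26 and 7, a ratio of 3.71 (1.57 to 10.1). On chromosome 13, neighbouring windows from 80 to 81 and 81 to 82 Mb held 14 and 43 cisplatin against 6 and 21 Pt-ttpy peaks.

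The 10 windows of highest Pt-ttpy to cisplatin ratio held 290 Pt-ttpy and 257 cisplatin peaks, and the interval of each held a ratio of 1. Against the 1.44 of the lists as a whole, the intervals at 37 to 38 Mb on chromosome 12, 8 to 9 Mb on chromosome 19 (0.599 to 1.41) and 96 to 97 Mb on chromosome 2 (0.637 to 1.37) lay below it, so the reading turns with the reference. Each of these held the median ratio of windows of its location, 1.13 near gaps and 1.36 elsewhere. Other windows also lay below 1.44, such as 142 to 143 Mb on chromosome 1 (0.855 to 1.14). At 37 to 38 Mb on chromosome 12, at the edge of the centromere gap, there were 23 Pt-ttpy and 16 cisplatin peaks, a cisplatin to Pt-ttpy ratio of 0.696 (0.343 to 1.38). At 44 to 45 Mb on chromosome 18 there were 16 and 12 (ratio 0.750, 0.324 to 1.69). At 8 to 9 Mb on chromosome 19 there were 49 and 45, and at 127 to 128 Mb on chromosome 10 there were 44 and 41. In these 10 windows 220 Pt-ttpy and 216 cisplatin peaks were common.

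**Figure D3:**
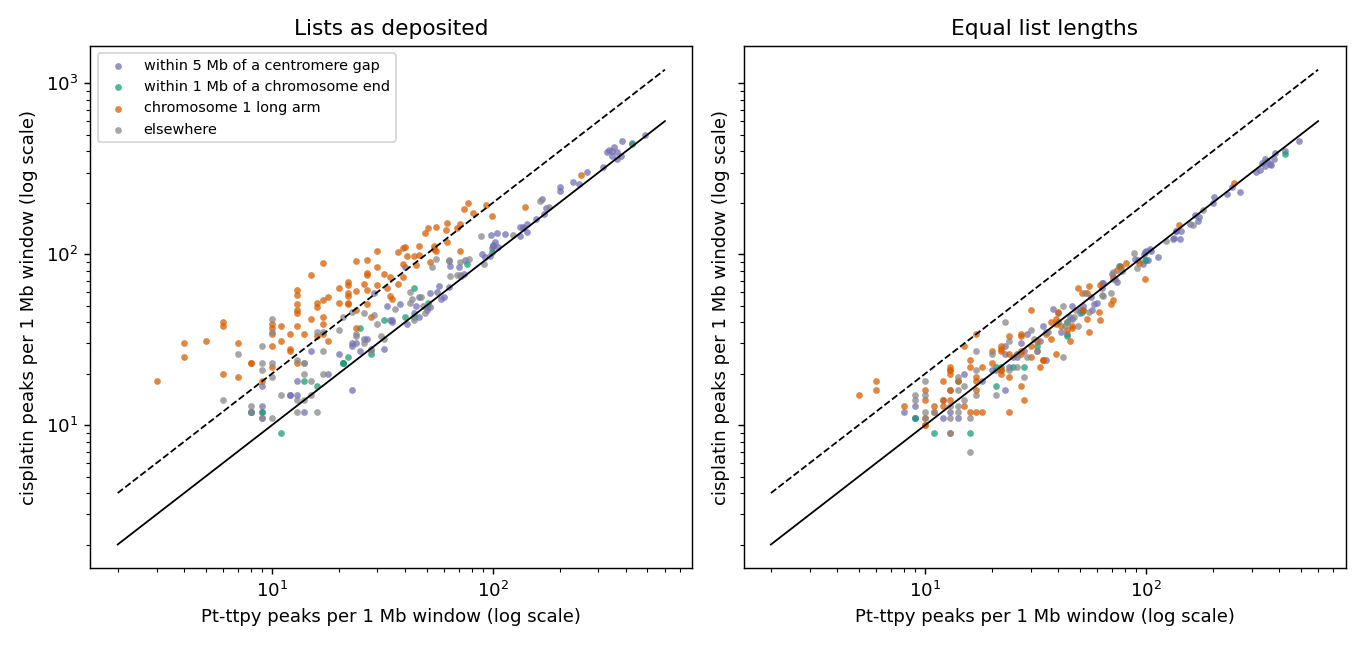
Peaks per 1 Mb window in the Pt-ttpy (x axis) and cisplatin list (y axis), log scales, for windows with at least 20 peaks over both lists, coloured by location; the left panel has the lists as deposited and the right panel the 17416 strongest cisplatin peaks against all 17416 Pt-ttpy peaks. Solid lines mark equal counts and dashed lines 2 cisplatin peaks per Pt-ttpy peak, which 91 of 268 windows exceed on the left and 3 of 250 on the right.

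Along the long arm of chromosome 1, in the lists as deposited, the ratio was lowest beside the centromere. In the first 5 Mb from the gap 1516 cisplatin and 1365 Pt-ttpy peaks gave a ratio of 1.11 (1.03 to 1.20), and 86.5% of the Pt-ttpy peaks were common. From 5 to 10 Mb it was 1.44 (1.29 to 1.62) with 66.2% common. Beyond 10 Mb the ratio in blocks of 5 Mb was between 1.91 and 3.41. At equal list lengths the ratio was 0.963 in the first 5 Mb and between 0.824, at 45 to 50 Mb, and 1.30, at 60 to 65 Mb, in the blocks beyond 10 Mb. The highest block of the deposited lists, 40 to 45 Mb from the gap, held 419 cisplatin, 123 Pt-ttpy and 1 untreated peak, and 11.4% of its Pt-ttpy peaks were common. The block 85 to 90 Mb from the gap stood out for overlap, with 51.9% of 133 Pt-ttpy peaks and 21.6% of 305 cisplatin peaks common, and it also had 61 untreated peaks where the other blocks beyond 10 Mb had 1 to 19.

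**Figure D4:**
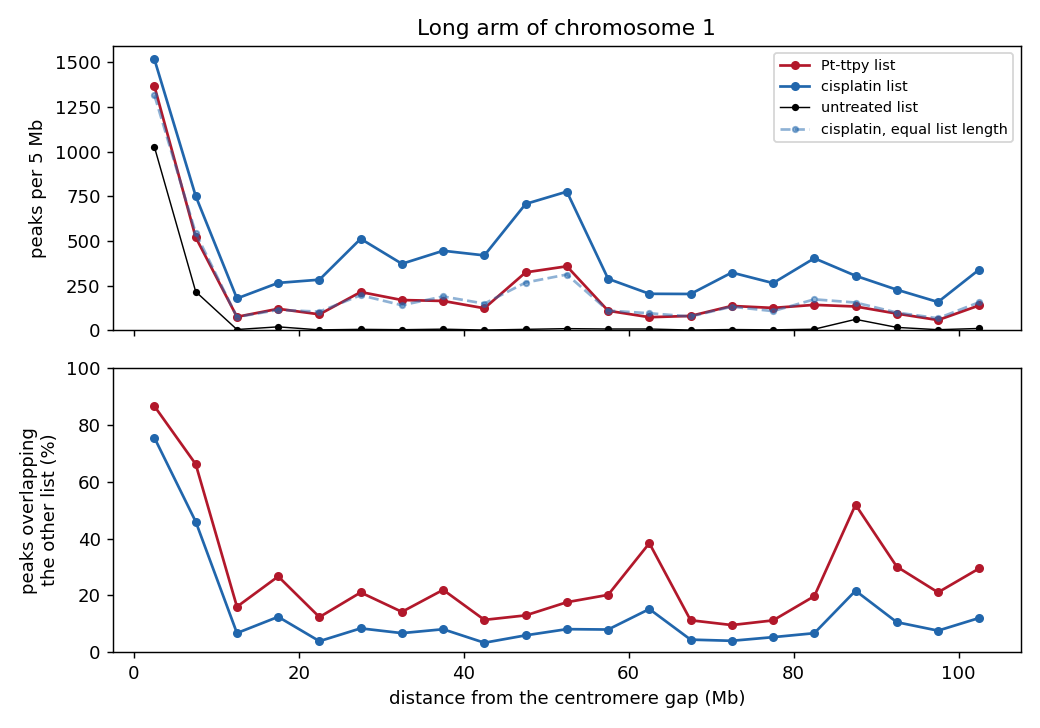
Long arm of chromosome 1 in blocks of 5 Mb by distance from the centromere gap (x axis, Mb): peaks per block in the Pt-ttpy, cisplatin and untreated lists and in the cisplatin list at equal length (top), and the percent of Pt-ttpy and cisplatin peaks that overlap the other list (bottom). The Pt-ttpy overlap is 86.5% beside the gap and 16.0% at 10 to 15 Mb. Farther out it varies between 9.56%, at 70 to 75 Mb, and 51.9%, at 85 to 90 Mb.

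The comparison was repeated at equal numbers of peaks, strongest first. With 500 peaks from each list, 91.0% (88.1 to 93.4%) of Pt-ttpy and 90.8% (87.9 to 93.2%) of cisplatin peaks lay on one another. With 1000 the shares were 90.4% and 89.8%, with 2000 they were 87.2% and 86.05%, with 5000 they were 85.3% and 83.5%, and with 10000 they were 79.5% and 78.25%. With 17416 from each they were 65.1% (64.3 to 65.8%) and 63.5% (62.7 to 64.2%). Up to 2000, every top peak without a top partner lay on a weaker peak of the other list. Of the top 5000, 62 Pt-ttpy and 84 cisplatin peaks lay on no peak of the other list at all, and of the top 10000, 980 and 1327.

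**Figure D5:**
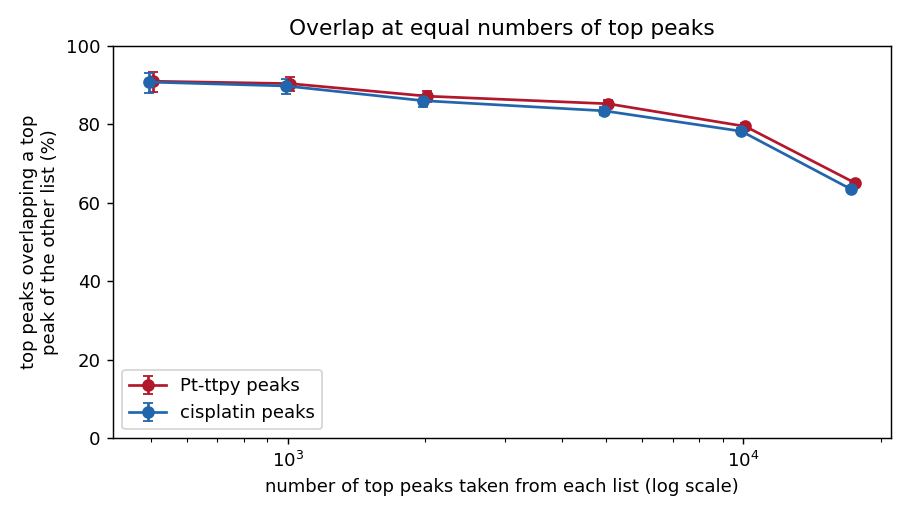
Percent of the strongest Pt-ttpy and cisplatin peaks that overlap one of the equally many strongest peaks of the other list (y axis) by the number taken from each list (x axis, log scale); bars are exact 95% binomial intervals and the points are set slightly apart sideways. Both fall together, from 91.0% and 90.8% at 500 peaks to 65.1% and 63.5% at 17416.

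Equal numbers removed most of the difference in where peaks were counted, but cut the lists at unlike strengths. With 17416 from each, the lowest -log10 q was 1.22 for Pt-ttpy and 3.20 for cisplatin. At a -log10 q of 5 or more, distal 1q held 473 Pt-ttpy and 972 cisplatin peaks. Near gaps these counts were 7078 and 7764, near ends 643 and 748, and elsewhere 1785 and 2235. With 17416 peaks from each list, 3 of 250 windows (1.20%) had more than 2 cisplatin peaks per Pt-ttpy peak, all on distal 1q: 160 to 161 Mb with 16 and 6 peaks, 165 to 166 Mb with 18 and 6, and 181 to 182 Mb with 15 and 5. The window at 201 to 202 Mb, with 11 and 4, was then under the minimum of 20 peaks. More Pt-ttpy peaks were counted in 122 windows (48.8%) and more cisplatin peaks in 110. These counts depend on cisplatin peaks tied at the limit: with all of them kept, 6 windows passed the ratio of 2 and 96 had more Pt-ttpy peaks, and with all left out 0 and 171. The 13 windows singled out outside distal 1q had ratios of at most 1.80, and 3 of them now had more Pt-ttpy peaks. At 44 to 45 Mb on chromosome 18, 16 Pt-ttpy peaks stood against 7, the 1 window with over 2 Pt-ttpy per cisplatin peak.

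Distal 1q then held 18.7% of Pt-ttpy and 18.8% of cisplatin peaks, and the centromere flanks 57.1% and 55.7%. These shares carry the unlike limits given above. The limit of the shortened cisplatin list fell inside a group of 2638 peaks tied at a -log10 q of 3.20. With all of these kept the cisplatin share on distal 1q was 20.1%, and with all left out 15.5%, so the order of the drugs there turned with the treatment of ties. The low overlap on distal 1q remained at equal numbers: 19.9% of its Pt-ttpy and 19.4% of its cisplatin peaks were common, against 79.5% and 79.5% near gaps. With 10000 peaks from each list, cut at -log10 q values of 4.42 and 5.65, distal 1q held 473 Pt-ttpy (4.73%) and 576 cisplatin peaks (5.76%). Among the 5000 strongest peaks of each list distal 1q held 128 Pt-ttpy and 137 cisplatin peaks, and 82.8% and 71.5% of these were common.

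The width ratio changed little at equal numbers, and ranks lay closer with 2000 peaks or fewer. Pairs over 20 points apart made up 19.3% at 17416 peaks, 20.1% at 10000, 12.0% at 2000, 8.91% at 1000 and 1.44% at 500, and rho was 0.846 at 17416 and 0.972 at 500. At 17416 peaks the width ratio in 8458 pairs was 0.980 (0.976 to 0.983), and at 500 peaks it was 0.994 (0.991 to 0.998) in 418 pairs, 256 of them wider in the cisplatin list and 154 in the Pt-ttpy list. The median summit distance fell from 22 bp at 17416 peaks to 4 bp at 500. The window at 161 to 162 Mb on chromosome 1 kept a shift towards cisplatin, -8.15 points in 17 pairs, and 64 to 65 Mb on chromosome 7 a shift towards Pt-ttpy, 9.16 points in 27 pairs.

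Most peaks of either drug that overlapped the untreated list were common to the drugs. Of the common peaks, 55.2% in the Pt-ttpy and 55.3% in the cisplatin list lay on an untreated peak, against 2.47% (130) of unshared Pt-ttpy and 1.51% (198) of the unshared cisplatin peaks. The untreated list lacks 8848 of the 18049 peak numbers its names run to, so these shares are those of the list as deposited.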

How the data were processed

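The labels describe γH2AX chromatin immunoprecipitation of A2780 cells with single reads of 50 bases. Per the submitters' processing notes, BWA 0.7.5, MACS2 2.1.0 and build hg19 were used; the sources used here do not give calling settings, controls or how replicates were combined. The values used are the authors' -log10 q-value, their ratio of fold enrichment and their summit offset. The deposited score is the -log10 q times 10 without its decimals, and the -log10 p-value in the deposited lists was not used. Read depth per sample is unknown, since the lists hold no read totals. Lists with different depth are not called on equal terms.

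Peaks on chromosomes 1 to 22 were compared as listed, by overlap of at least 1 bp. One-to-one pairs were ranked by -log10 q among the pairs, with mean ranks for ties. Windows of 1 Mb took peaks by their midpoint. They entered with 20 or more peaks (counts) or 10 or more pairs (shifts). A list at 0 peaks would be bounded by 3 counts. Top peaks were taken by -log10 q, ties by width and then position. Chromosome lengths and gaps of hg19 were entered from general knowledge of the assembly, and 0 peaks lay in a gap or beyond an end.

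Named were the 10 windows of most extreme count ratio each way, the 8 of most extreme shift each way, the 8 pairs of largest rank shift each way, the 5 of most unequal width each way (at least 500 bp in 1 list), the 8 strongest unshared peaks of each list and the 5 peaks of each list with most partners; the text gives the most extreme of each. The members, location classes and rules were chosen with earlier results of these data known. The planned search for guanine runs, and gene names, needed an hg19 genome or annotation and were not run. The input samples were not analysed here. Code was tested on simulated data. Tables were handled with pandas 2.3.3 and numpy 2.4.6 under Python 3.11.15, intervals computed with scipy 1.17.1 and figures drawn with matplotlib 3.10.9.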

Additional observations from a re-analysis of the deposited data

Results flagged for a closer look

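Chromosomes X and Y, outside the autosomal comparison, held more peaks after either drug than in the untreated list. So did the autosomes, with 17416 Pt-ttpy and 25132 cisplatin against 9487 untreated peaks, a larger excess in proportion than on X or Y. The untreated list lacks 8848 of the 18049 peak numbers its names run to. On chromosome X there were 373 Pt-ttpy and 539 cisplatin peaks against 222 untreated, and 73.7% of Pt-ttpy and 50.1% of cisplatin peaks overlapped the other drug's list. On chromosome Y there were 433 Pt-ttpy and 449 cisplatin peaks against 380 untreated, with 91.7% and 86.4% overlapping. A2780 is an ovarian carcinoma line, so the chromosome Y counts are given as listed and not read as damage to that chromosome. Where the reads under these peaks came from was not tested.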

How the results depend on the processing

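No paired analysis was possible because each group is 1 list, and for the same reason no replicate could be left out. The share of Pt-ttpy peaks on cisplatin peaks, the reverse share, and the share of top Pt-ttpy peaks at equal numbers were 83.1%, 70.3% and 79.4% at a -log10 q of at least 5. With a reciprocal overlap of 50% they were 47.7%, 33.1% and 45.2%, against 55.4%, 30.2% and 50.9% with peaks within 1 kb merged, 78.9%, 61.8% and 74.7% without the long arm of chromosome 1, and 51.9%, 27.5% and 45.6% without the centromere flanks. At equal list lengths the first pair of shares was 65.1% and 63.5%. The equal-number share was 64.3% with ties by position, 85.3% for 5000 and 90.4% for 1000 top peaks. The width ratio was 0.985 at a -log10 q of at least 5, 0.985 with reciprocal overlap, 0.966 merged and 0.974 without the flanks. The summit distance was 16, 21 and 34 bp for the first 3 of these settings, 31 bp without the flanks, 22 bp at equal lengths and 21 bp without the arm. Pairs over 20 points apart were 20.6%, 16.1%, 16.9% and 22.8% in the same 4 settings as the ratio. The median rank shift on distal 1q turned from -0.549 to 0.476 points at a -log10 q of at least 5; the cause was not tested. Windows with over 2 cisplatin peaks per Pt-ttpy peak fell from 91 of 268 to 9 at that limit, 3 of 250 at equal lengths and 11 without the arm. How many windows still held 20 peaks was not recorded in the other settings, so a lower count there need not mean lower ratios. Windows with more Pt-ttpy peaks numbered 122 of 250 at equal lengths and 9 without the flanks, against 23 of 268. An alternative chosen after seeing the data kept or left out all cisplatin peaks tied at the limit of equal lengths. Kept, the shares were 65.6% and 61.1%, with 6 windows over 2 and 96 with more Pt-ttpy peaks. Left out, they were 63.0% and 68.1%, with 0 and 171 windows. The search for guanine runs was not run. Calling depth and drug cannot be told apart with 1 list each.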
